A study of Mus musculus with 12 samples.

Results

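The genes described here are 42 integrins and other cell adhesion molecules of the mouse, taken by name, with no threshold on a measured value, from a list drawn up when earlier results of these data were known, out of 24138 genes in each deposited table. They comprise 21 integrin chains, 9 receptors of the immunoglobulin family, 4 cadherins, 5 selectins and sialomucins, and Cd44, Cd47 and Cd9. RNA came from cells of the intra-aortic haematopoietic clusters, in which the first blood stem and progenitor cells of the embryo appear. The aorta-gonad-mesonephros region of C57BL/6 embryos was the source, and the sort was by absence of SSEA-1 and presence of CD31 and CD117. The 4 groups of 3 samples were E11.5 cells past G1, in S, G2 or M (S/G2/M), from Fucci Green animals that carry the mAG reporter, E11.5 cells in G1, from Fucci Red animals that carry the mKO2 reporter, E10.5 S/G2/M cells from Fucci Green animals, and E10.5 G1 cells from Fucci Red animals. Every group shared the strain and the surface gate, and every animal carried a reporter of the cell cycle. Phase and reporter strain coincided, so a difference between phases and a difference between strains cannot be told apart. Whether the 3 samples per group are separate litters is not stated in the labels, and p-values then measure only the spread between these samples.

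Integrins are receptors made of 1 alpha and 1 beta chain, which bind the extracellular matrix or receptors on other cells and link them to the actin cytoskeleton after an activating signal from inside the cell. Selectins and their mucin-like ligands mediate the rolling of leukocytes on vessel walls, cadherins hold like cells together at junctions, and members of the immunoglobulin family act as integrin ligands or as junction proteins of the endothelium. Cells of the aortic clusters arise from endothelium and take on haematopoietic features while still attached to the vessel wall, so both endothelial and leukocyte adhesion genes are of interest in them.

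The values are the authors' group values in FPKM (fragments scaled by transcript length and by the number of mapped fragments). Each gene has 1 value per group, which leaves the spread between samples and the depth unknown. The words rose, fell and changed are used for genes called at a q-value under 0.05, read from the authors' deposited table. The smallest p-value there is 5e-05. RNA of the positive markers of the gate, CD31 and CD117, was present in all groups. Pecam1, which encodes CD31, stood at 73.2 FPKM in E11.5 S/G2/M, 113 in E11.5 G1, 29.7 in E10.5 S/G2/M and 38.1 in E10.5 G1. Kit, which encodes CD117, stood at 30.0, 17.1, 12.6 and 14.4 FPKM in the same order. With age, Pecam1 rose in S/G2/M (q = 0.00971) and in G1 (q = 0.00861) in the authors' deposited tables. Kit rose in S/G2/M (q = 0.0285) and was not called in G1 (q = 0.821) there. Fut4, which encodes an enzyme that can make the SSEA-1 epitope, stood at 1.86 to 4.17 FPKM. Its RNA is not a measure of the epitope, whose absence was the gate. Markers of other cells differed between groups too. The summed FPKM of 20 macrophage and monocyte markers was 1848 in E11.5 S/G2/M, 4720 in E11.5 G1, 485 in E10.5 S/G2/M and 739 in E10.5 G1. That of 13 mesenchymal markers was 52.7 in E11.5 S/G2/M, 65.1 in E11.5 G1, 199 in E10.5 S/G2/M and 192 in E10.5 G1. The summed FPKM of 11 erythroid markers, most of it embryonic globin RNA, was 3211 in E11.5 S/G2/M, 11921 in E11.5 G1, 19387 in E10.5 S/G2/M and 14267 in E10.5 G1.

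Most of the adhesion genes were expressed throughout. In all 4 groups, 33 of the 42 reached 1 FPKM, 15 reached 10 FPKM and 9 reached 20 FPKM. The most abundant was Emcn (endomucin, a sialomucin of venous and capillary endothelium), at 178 FPKM in E11.5 S/G2/M, 207 in E11.5 G1, 90.8 in E10.5 S/G2/M and 107 in E10.5 G1. It was followed by Itgb1, Cd47, F11r, Itga6, Icam2, Esam, Cdh2, Podxl and Cd44 in the order of their highest level. Under 1 FPKM in every group were Itgax, Itgae, Itga7, Itgb4 and Sele, which the authors did not test in any comparison. The group with the highest level was E11.5 G1 for 22 genes, E11.5 S/G2/M for 10, E10.5 S/G2/M for 5 and E10.5 G1 for 5. The tables of ages, from which levels across the 4 groups are taken, and the tables of phases were normalised separately, and a value of 1 FPKM or more differed between them by at most 1.10-fold.

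**Figure D1:**
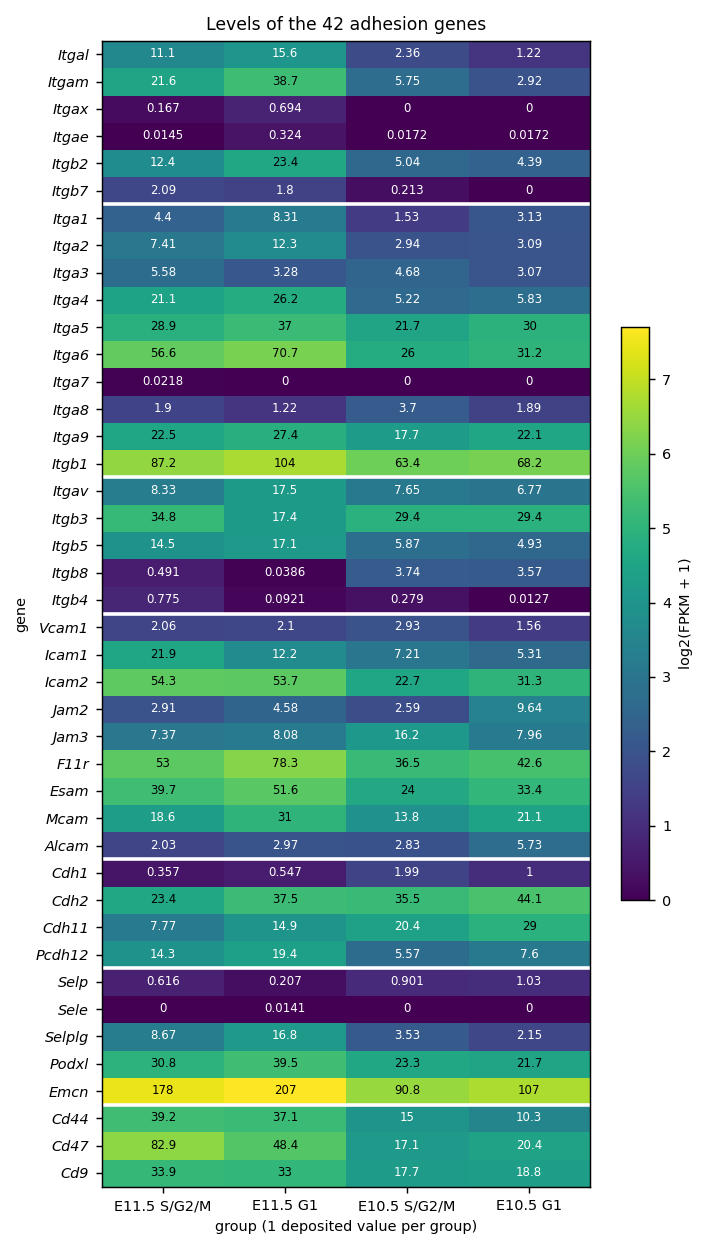
Levels of the 42 genes (rows, ordered by class) in the 4 groups (columns), as log2(FPKM + 1) of 1 deposited value per group, with the FPKM written in each cell. Emcn and Itgb1 are the brightest rows, and Itgax, Itgae, Itga7, Itgb4 and Sele stay near 0 in every group.

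The first comparison asked how E11.5 cells differ from E10.5 cells of the same phase. Among G1 cells, 9 of the 37 adhesion genes tested rose with age and none fell in the authors' Cuffdiff test. Jam2 and Cdh11 were lower with unadjusted p-values of 0.0245 and 0.0155 in the authors' deposited table. The 9 were the leukocyte integrin chains Itgal, Itgam, Itgb2 and Itgb7, the alpha chains Itga2, Itga4 and Itgav, the selectin ligand Selplg and the hyaluronan receptor Cd44. The called share was 24.3%, against 4.45% of all genes tested by the authors in this comparison, of which 3.0% rose and 1.45% fell. An unadjusted p under 0.05 was reached by 18 of the 37, against 15.4% of all genes. The median log2 fold change was 0.79 over 36 genes above 0 in both groups, against 0.02 over all genes, and 28 of the 37 were higher at E11.5, against 50.9% of all genes.

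Among S/G2/M cells, Itgal, Itga4, Cd44 and Cd47 rose with age, and Itgb8 and Cdh11 fell, of 37 tested. The called share of 16.2% stands against 4.07% of all genes, of which 2.14% rose and 1.93% fell. An unadjusted p under 0.05 was reached by 15 of the 37, against 13.9% of all genes. The median log2 fold change was 0.54, against 0.03 over all genes, and again 28 of 37 were higher at E11.5, against 52.1% of all genes. In the same comparison 10 of 11 erythroid markers were lower at E11.5, with a median log2 fold change of -2.38, and Hbb-bh1 and Slc4a1 fell. Among G1 cells 4 of the 11 were lower and none was called in the authors' Cuffdiff test, while 2 had an unadjusted p under 0.05. The part of erythroid cells in the values of the adhesion genes was not tested. The comparisons of ages in S/G2/M and in G1 share no sample. They had Itgal, Itga4 and Cd44 in common, which is 50% of the 6 changed in S/G2/M and 33.3% of the 9 changed in G1. Of the 37 genes tested in both, 26 were higher and 7 lower at E11.5 in both phases, while Itgb3, Vcam1, Jam2 and Jam3 differed in sign. The same overlap and sign counts over all genes are not given here. Whether these counts are particular to the adhesion genes is therefore not known. Whether an age difference itself differs between phases was not tested, since no values of single samples were at hand.

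**Figure D2:**
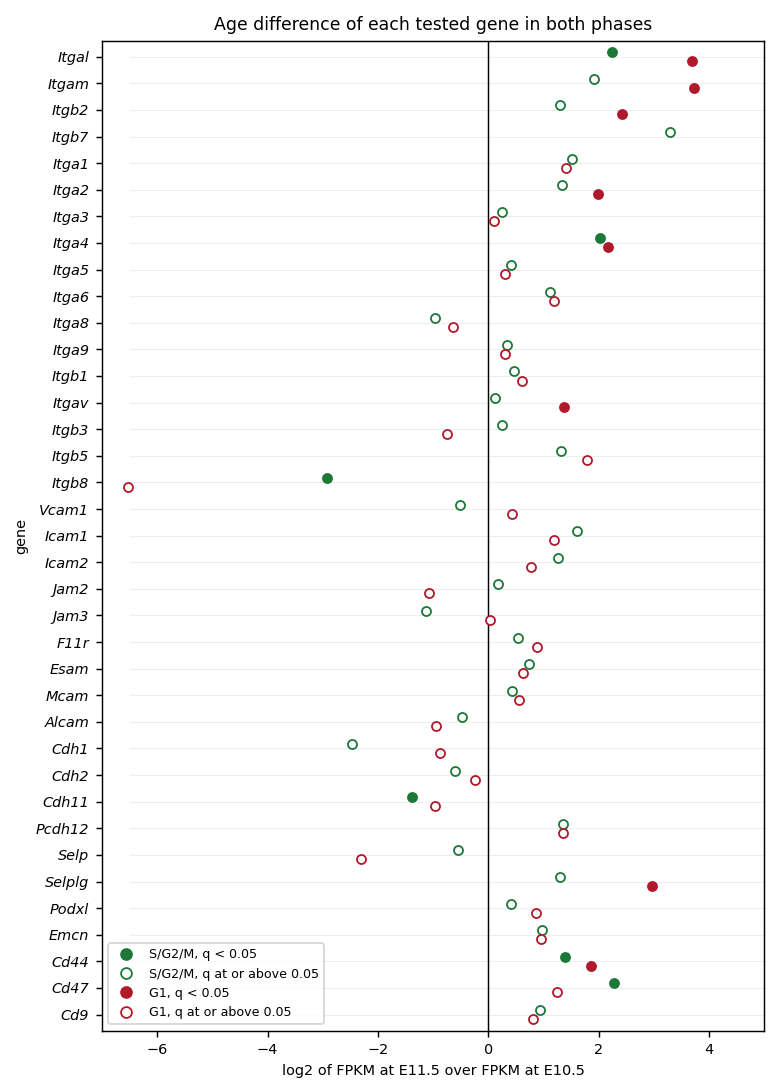
Log2 of the FPKM at E11.5 over that at E10.5 (horizontal axis) for each tested gene (rows), with S/G2/M in green and G1 in red, filled where the authors' q-value was under 0.05. The filled points lie right of 0 except those of Itgb8 and Cdh11 in S/G2/M, and Itgb7 has no point for G1 because it is listed at 0 in E10.5 G1.

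For the genes that changed with age, sequence before the transcription start was read from the RefSeq promoter table of build GRCm38.p6, which matched 24 of the 42 members and 7 of the 10 that rose in either phase. Each of these windows of 250 bases was searched on both strands for GAGGAAG, a sequence bound by the myeloid ETS factor PU.1, and TGTGGT, the core bound by RUNX factors. No window shown holds both. GAGGAAG occurred in 4 of the 24 (Itgam, Itgav, Cd44 and Alcam), or 16.7%, against 10.4% of 27025 promoters of the same length. TGTGGT occurred in 1 of the 24, Itga4, or 4.17%, against 14.2% of all. The 4 promoters shown are those of genes that rose and hold a match, and capitals mark the match. They lie at chr7:128062390-128062639 on the plus strand for Itgam, chr2:83724147-83724396 on the plus strand for Itgav, chr2:102901666-102901915 on the minus strand for Cd44 and chr2:79255176-79255425 on the plus strand for Itga4, each written 5′ to 3′ on the strand of its gene.
Itgam: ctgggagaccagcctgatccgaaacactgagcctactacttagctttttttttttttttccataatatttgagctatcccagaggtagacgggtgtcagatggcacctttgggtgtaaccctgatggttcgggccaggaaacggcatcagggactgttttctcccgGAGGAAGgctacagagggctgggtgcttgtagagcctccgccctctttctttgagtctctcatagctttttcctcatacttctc
Itgav: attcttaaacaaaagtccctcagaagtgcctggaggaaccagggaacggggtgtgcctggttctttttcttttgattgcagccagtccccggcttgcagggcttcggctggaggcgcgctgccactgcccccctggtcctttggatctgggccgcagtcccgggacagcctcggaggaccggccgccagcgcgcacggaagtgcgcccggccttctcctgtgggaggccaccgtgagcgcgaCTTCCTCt
Cd44: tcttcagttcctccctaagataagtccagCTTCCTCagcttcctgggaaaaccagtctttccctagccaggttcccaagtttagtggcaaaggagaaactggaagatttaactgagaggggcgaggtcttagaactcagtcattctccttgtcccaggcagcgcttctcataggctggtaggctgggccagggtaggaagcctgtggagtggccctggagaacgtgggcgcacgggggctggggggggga
Itga4: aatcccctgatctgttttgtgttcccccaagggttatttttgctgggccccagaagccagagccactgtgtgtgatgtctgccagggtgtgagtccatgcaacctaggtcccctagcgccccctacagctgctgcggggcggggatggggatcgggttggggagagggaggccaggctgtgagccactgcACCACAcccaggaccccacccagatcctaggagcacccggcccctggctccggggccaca
Counted back from the start, the match began at -84 in Itgam, -8 in Itgav, -221 in Cd44 and -60 in Itga4. It is written in the reverse orientation in Itgav and Cd44 (CTTCCTC) and in Itga4 (ACCACA). A match of letters is a description of the window and not a measured binding site.

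Of the classes, the leukocyte integrin chains had the highest median log2 fold change with age, 2.07 over 4 genes in S/G2/M and 3.68 over 3 genes in G1. Itgal, the alpha chain of LFA-1, which binds ICAM proteins (chr7:127296260-127335137, mm10), stood at 11.1 FPKM in E11.5 S/G2/M and 15.6 in E11.5 G1, against 2.36 in E10.5 S/G2/M and 1.22 in E10.5 G1. It rose 4.71-fold in S/G2/M (q = 0.0275) and 12.8-fold in G1 (q = 0.00861) in the authors' deposited tables. Itgam, the alpha chain of the complement receptor Mac-1 (chr7:128062640-128118491), stood at 21.6 FPKM in E11.5 S/G2/M and 38.7 in E11.5 G1, against 5.75 and 2.92 at E10.5 in those phases. Its 13.2-fold rise in G1 passed the threshold in the authors' deposited table (q = 0.00273), and its 3.75-fold higher value in S/G2/M did not (q = 0.55). Itgb2, the beta chain that both alpha chains need at the cell surface (chr10:77530348-77565674), stood at 12.4 FPKM in E11.5 S/G2/M and 23.4 in E11.5 G1, against 5.04 in E10.5 S/G2/M and 4.39 in E10.5 G1. It rose 5.33-fold in G1 (q = 0.00273), and the 2.47-fold higher value in S/G2/M was not called (q = 0.291) in the authors' deposited tables.

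Itgb7, the partner of the alpha-4 and alpha-E chains on lymphocytes (chr15:102215995-102231935), was lower than these, at 2.09 FPKM in E11.5 S/G2/M and 1.80 in E11.5 G1, against 0.213 in E10.5 S/G2/M and a listed value of 0 in E10.5 G1. It was called in G1 in the authors' deposited table (q = 0.00273), with no fold given against a value of 0, and not in S/G2/M (q = 0.609). Itgax, the alpha chain of the dendritic cell integrin CD11c, reached at most 0.694 FPKM, in E11.5 G1, and is listed at 0 in both E10.5 groups. Itgae, the alpha-E chain, reached at most 0.324 FPKM, again in E11.5 G1. All 4 tested chains of this class thus rose in G1, against 3.0% of all genes, and 1 of 4 in S/G2/M, against 2.14%. Itgb7, listed at 0 in E10.5 G1, could enter the test in G1 only through its E11.5 value. Itgax and Itgae were not tested, so the count covers only the chains with enough reads.

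Markers of macrophages and monocytes moved in the same comparisons. Of 20 listed, 12 of the 18 tested rose with age in S/G2/M and 17 of the 19 tested rose in G1, with summed levels of 1848 against 485 FPKM in S/G2/M and 4720 against 739 FPKM in G1. Csf1r, the receptor for the macrophage growth factor CSF1, stood at 76.5 FPKM in E11.5 S/G2/M and 230.9 in E11.5 G1, against 18.4 and 28.2 at E10.5 in those phases. Cd163, a scavenger receptor of mature macrophages, did not exceed 0.0207 FPKM in any group and is listed at 0 at E10.5. Of 9 granulocyte markers, 1 of the 4 tested rose in S/G2/M and 3 of the 5 tested in G1. Of all genes, 2.14% rose in S/G2/M and 3.0% in G1. The part of these cells in the rise of the leukocyte integrin chains, Selplg and Cd44 was not tested, and in bulk samples a larger share of cells of a type and more RNA per cell cannot be told apart. The exons of Itgam overlap those of Gm49368 on the same strand, and Itgam and Itgax are near-neighbours on chromosome 7. Whether any reads were shared between these genes was not tested.

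Among the chains of the beta-1 class, Itga4, the alpha chain of VLA-4, which binds VCAM-1 and fibronectin, rose in both phases. Its level was 21.1 FPKM in E11.5 S/G2/M and 26.2 in E11.5 G1, against 5.22 in E10.5 S/G2/M and 5.83 in E10.5 G1. These are rises of 4.04-fold (q = 0.00308) and 4.49-fold (q = 0.00273) in the authors' deposited tables. Both E11.5 values lay above both E10.5 values. The deposited locus of Itga4 (chr2:79255426-79428988, plus strand) also covers Cerkl on the opposite strand, which has its own row and stood at 1.26 and 1.37 FPKM at E11.5 against 0.362 and 0.391 at E10.5, in S/G2/M and G1 in each case.

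Itga2, the collagen-binding alpha chain known from platelets (chr13:114835912-114932041), stood at 7.41 FPKM in E11.5 S/G2/M and 12.3 in E11.5 G1, against 2.94 in E10.5 S/G2/M and 3.09 in E10.5 G1. Its 3.98-fold rise in G1 passed the threshold (q = 0.0376) and the 2.52-fold higher value in S/G2/M did not (q = 0.149) in the authors' deposited tables. Of 12 megakaryocyte markers, all tested, 1 rose with age in G1, the platelet chemokine gene Ppbp, or 8.33%, against 3.0% of all genes. The summed level of the 12 was 558 FPKM in E11.5 S/G2/M and 434 in E11.5 G1, against 255 and 275 at E10.5, and the part of these cells in the rise of Itga2 was not tested. Itga2 was the called gene nearest to the threshold in G1, and Pcdh12 the uncalled one nearest to it.

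The remaining chains of this class were not called. Itgb1, the beta chain shared by the class, was the most abundant of the integrin chains described here. It stood at 87.2 FPKM in E11.5 S/G2/M, 104 in E11.5 G1, 63.4 in E10.5 S/G2/M and 68.2 in E10.5 G1. Among the alpha chains described here, Itga6, the laminin-receptor chain, was the most abundant. It stood at 56.6 FPKM in E11.5 S/G2/M and 70.7 in E11.5 G1, against 26.0 and 31.2 at E10.5. Its 2.18-fold and 2.27-fold higher values had q-values of 0.231 and 0.224 in the authors' deposited tables, and its deposited locus spans 4.56 times the length of the annotated gene. Itga5, the fibronectin-receptor chain, lay between 21.7 and 37.0 FPKM in the 4 groups, and Itga9, which binds tenascin-C, between 17.7 and 27.4. Itga1, a collagen-receptor chain, stood at 4.40 FPKM in E11.5 S/G2/M and 8.31 in E11.5 G1, against 1.53 and 3.13 at E10.5. Itga3, another laminin-receptor chain, lay between 3.07 and 5.58 FPKM. Itga8, which binds nephronectin, was the one tested chain of the class with lower values at E11.5 in both phases, at 1.90 FPKM in S/G2/M and 1.22 in G1, against 3.70 and 1.89 at E10.5. Itga7 reached at most 0.0218 FPKM.

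The alpha-v class, whose ligands include vitronectin and latent TGF-beta, differed by chain. Itgav, its alpha chain (chr2:83724397-83806917), stood at 8.33 FPKM in E11.5 S/G2/M and 17.5 in E11.5 G1, against 7.65 in E10.5 S/G2/M and 6.77 in E10.5 G1. Its level was highest in E11.5 G1, and its 2.58-fold rise in G1 passed the threshold in the authors' deposited table (q = 0.0347), against a 1.09-fold higher value in S/G2/M (q = 0.933). Itgb8, the beta chain known for activating latent TGF-beta (chr12:119162803-119238276), stood at 0.491 FPKM in E11.5 S/G2/M and 0.0386 in E11.5 G1, against 3.74 in E10.5 S/G2/M and 3.57 in E10.5 G1. It fell 7.62-fold in S/G2/M in the authors' deposited table (q = 0.0466), the called value nearest to the threshold there. Its lower value in G1 was not called in the authors' deposited table (p = 0.171, q = 0.566), though the E11.5 value was the lower of the pair in that phase too.

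Itgb5, which pairs with the alpha-v chain, stood at 14.5 FPKM in E11.5 S/G2/M and 17.1 in E11.5 G1, against 5.87 and 4.93 at E10.5, and its 2.48-fold and 3.47-fold higher values had q-values of 0.117 and 0.0841 in the authors' deposited tables. Itgb3, the beta chain of the platelet fibrinogen receptor and of the vitronectin receptor, stood at 34.8 FPKM in E11.5 S/G2/M, 17.4 in E11.5 G1, 29.4 in E10.5 S/G2/M and 29.4 in E10.5 G1, with E11.5 G1 the low group. Itgb4, the partner of the alpha-6 chain in hemidesmosomes of epithelia, stayed at or under 0.775 FPKM.

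Relative to each other, the beta chains kept Itgb1 in first place. Summed over 7 beta chains, the level was 152 FPKM in E11.5 S/G2/M, 164 in E11.5 G1, 108 in E10.5 S/G2/M and 111 in E10.5 G1. Itgb1 made up 57.2% of the sum in E11.5 S/G2/M, 63.4% in E11.5 G1, 58.7% in E10.5 S/G2/M and 61.7% in E10.5 G1. The share of Itgb2 was 8.16% in E11.5 S/G2/M and 14.3% in E11.5 G1, against 4.67% and 3.97% at E10.5. The share of Itgb3 was 22.9% in E11.5 S/G2/M and 10.7% in E11.5 G1, against 27.2% and 26.6% at E10.5. Among the alpha chains described here, Itga6 held the largest share of their sum in each group, from 26.2% to 29.9%. Itga2b, Itga10, Itga11 and Itgad were placed in a further list of adhesion receptors and are outside the alpha sum. Itgb6 is outside the beta sum for the same reason. Itgam held 11.4% of the alpha sum in E11.5 S/G2/M and 14.9% in E11.5 G1, against 5.80% and 2.63% at E10.5. Itga5 held 15.3% in E11.5 S/G2/M and 14.3% in E11.5 G1, against 21.8% and 27.0% at E10.5. These shares are of RNA and say nothing of which chains were paired at the surface.

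**Figure D3:**
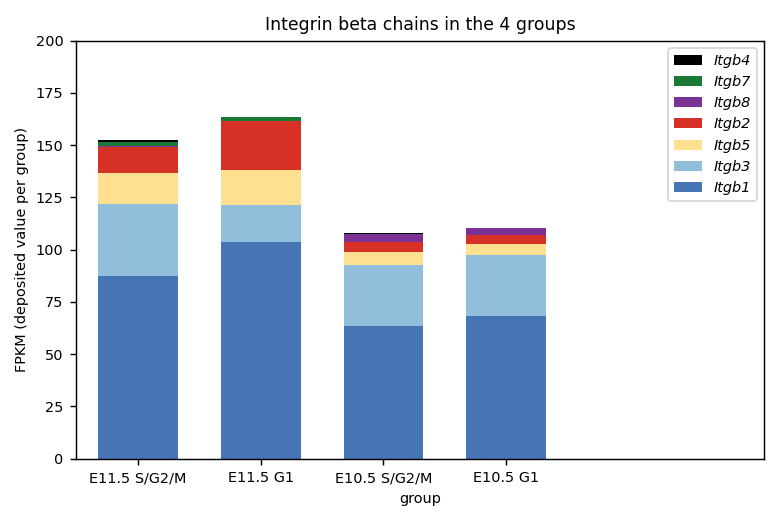
Stacked FPKM of the 7 integrin beta chains (vertical axis) in each of the 4 groups (horizontal axis), 1 deposited value per chain and group and no error bars. The Itgb1 block is the tallest in every group, and the Itgb2 block is tallest in E11.5 G1, at 23.4 FPKM.

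No receptor of the immunoglobulin family was called with age in the authors' Cuffdiff test, of 9 tested in each phase. Of all genes, 4.07% were called in S/G2/M and 4.45% in G1, so none of 9 says little about the class. An unadjusted p under 0.05 in that test was reached by 3 in S/G2/M, against 13.9% of all genes, and by 2 in G1, against 15.4%. Icam1, a ligand of the beta-2 integrins that inflammatory signals induce on endothelium, stood at 21.9 FPKM in E11.5 S/G2/M and 12.2 in E11.5 G1, against 7.21 and 5.31 at E10.5 (q = 0.078 in S/G2/M and 0.424 in G1 in the authors' deposited tables). Icam2, a constitutive endothelial ligand of LFA-1, stood at 54.3 FPKM in E11.5 S/G2/M and 53.7 in E11.5 G1, against 22.7 and 31.3 at E10.5, with q-values of 0.128 and 0.521 in the authors' deposited tables. For both genes the E11.5 values lay above both E10.5 values. Vcam1, the VLA-4 ligand, stayed between 1.56 and 2.93 FPKM.

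The junctional members of the family and Alcam were not called either. F11r (JAM-A) stood at 53.0 FPKM in E11.5 S/G2/M and 78.3 in E11.5 G1, against 36.5 and 42.6 at E10.5. Esam, an adhesion molecule of endothelial tight junctions, stood at 39.7 and 51.6 FPKM at E11.5, against 23.97 and 33.4 at E10.5, in S/G2/M and G1 in each case. Mcam (CD146), found on endothelium and perivascular cells, lay between 13.8 and 31.0 FPKM. Jam2 was highest in E10.5 G1, at 9.64 FPKM, and lay between 2.59 and 4.58 in the other 3 groups. Jam3, its binding partner, was highest in E10.5 S/G2/M, at 16.2 FPKM, and lay between 7.37 and 8.08 in the others. Alcam, the ligand of CD6, was highest in E10.5 G1, at 5.73 FPKM, and lay between 2.03 and 2.97 in the others. With 1 value per group, whether these single high values exceed the spread between samples is not known.

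Of the 4 cadherins, Cdh11, a mesenchymal cadherin (chr8:102632995-102785111), stood at 7.77 FPKM in E11.5 S/G2/M and 14.9 in E11.5 G1, against 20.4 in E10.5 S/G2/M and 29.0 in E10.5 G1. It fell 2.62-fold in S/G2/M (q = 0.0352), and its 1.94-fold lower value in G1 was not called (q = 0.17) in the authors' deposited tables. Both E11.5 values lay under both E10.5 values. Mesenchymal markers moved the same way: of 13 tested, 5 fell with age in S/G2/M and 4 in G1, and none rose. Of all genes, 1.93% fell in S/G2/M and 1.45% in G1. The part of mesenchymal cells in the fall of Cdh11 was not tested. Cdh2 (N-cadherin) stood at 23.4 FPKM in E11.5 S/G2/M and 37.5 in E11.5 G1, against 35.5 and 44.1 at E10.5, and was not called. Cdh1 (E-cadherin), the cadherin of epithelia, stood at 0.357 FPKM in E11.5 S/G2/M and 0.547 in E11.5 G1, against 1.99 and 1.004 at E10.5. Epithelial and neural markers had summed levels of 58.5 FPKM in E11.5 S/G2/M and 94.8 in E11.5 G1, against 127 and 349.8 at E10.5, and their part in the values of Cdh1 and Cdh2 was not tested.

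Pcdh12, a protocadherin of endothelial cells, was higher at E11.5 and lay just outside the threshold in both phases. It stood at 14.3 FPKM in E11.5 S/G2/M and 19.4 in E11.5 G1, against 5.57 in E10.5 S/G2/M and 7.60 in E10.5 G1. The 2.57-fold and 2.55-fold higher values had q-values of 0.0514 and 0.0651 in the authors' deposited tables. Of 16 endothelial markers, 4 rose with age in S/G2/M and 1 in G1. These are 25% and 6.25%, against 2.14% and 3.0% of all genes. Their summed level was 864 FPKM in E11.5 S/G2/M and 1022 in E11.5 G1, against 448 and 601 at E10.5. The part of this difference in the values of Pcdh12, Emcn and Icam2 was not tested.

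Among selectins and sialomucins, Selplg (PSGL-1), the selectin ligand of leukocytes (chr5:113817798-113830501), stood at 8.67 FPKM in E11.5 S/G2/M and 16.8 in E11.5 G1, against 3.53 in E10.5 S/G2/M and 2.15 in E10.5 G1. It rose 7.82-fold in G1 (q = 0.00861), and its 2.45-fold higher value in S/G2/M was not called (q = 0.428) in the authors' deposited tables. The selectins themselves were low. Selp stayed at or under 1.03 FPKM and Sele at or under 0.0141. Podxl (podocalyxin), an anti-adhesive sialomucin related to CD34, stood at 30.8 FPKM in E11.5 S/G2/M and 39.5 in E11.5 G1, against 23.3 and 21.7 at E10.5. Emcn was 1.96-fold higher at E11.5 in S/G2/M and 1.94-fold higher in G1, with q-values of 0.0967 and 0.167 in the authors' deposited tables.

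Cd44, which binds hyaluronan (chr2:102811142-102901665), rose in both phases. It stood at 39.2 FPKM in E11.5 S/G2/M and 37.1 in E11.5 G1, against 15.0 in E10.5 S/G2/M and 10.3 in E10.5 G1, rises of 2.61-fold (q = 0.0116) and 3.61-fold (q = 0.00273) in the authors' deposited tables. Cd47, the integrin-associated protein whose binding to SIRP-alpha restrains phagocytosis (chr16:49855654-49911683), stood at 82.9 FPKM in E11.5 S/G2/M and 48.4 in E11.5 G1, against 17.1 and 20.4 at E10.5. It rose 4.86-fold in S/G2/M (q = 0.00308), and its 2.37-fold higher value in G1 was not called (q = 0.0934) in the authors' deposited tables. Cd9, a tetraspanin that associates with integrins, stood at 33.9 FPKM in E11.5 S/G2/M and 33.0 in E11.5 G1, against 17.7 and 18.8 at E10.5, and was not called in either phase (q = 0.366 and 0.516 in the authors' deposited tables). In all 3 genes both E11.5 values lay above both E10.5 values.

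The second comparison asked how S/G2/M cells differ from G1 cells of the same age. At E10.5 none of the 36 adhesion genes tested was called at q under 0.05, where 0.655% of all genes were, 0.193% risen and 0.462% fallen. An unadjusted p under 0.05 was reached by 1 of the 36, against 6.69% of all genes. This was Jam2, at 2.59 FPKM in S/G2/M and 10.1 in G1, a 3.90-fold lower value (p = 0.0025, q = 0.203 in the authors' deposited table). Alcam stood at 2.82 FPKM in S/G2/M and 6.01 in G1, and Mcam at 14.1 and 22.1 in that order. Endothelial markers were lower in S/G2/M in 16 of 16, with sums of 455 against 627 FPKM, and Gja5 fell. Of 13 epithelial and neural markers tested, 9 were lower in S/G2/M, with sums of 127 against 366 FPKM, and Dcx, Elavl3, Stmn2 and Tubb3 fell. The part of these cells in the values of Jam2, Alcam and Mcam was not tested. Differences the other way were largest, at 5 FPKM or more, for Jam3, at 16.3 FPKM in S/G2/M and 8.34 in G1, Itgam, at 5.86 and 3.04, and Cd44, at 15.2 and 10.7. All 3 leukocyte integrin chains tested here were higher in S/G2/M, with a median log2 fold change of 0.91. Macrophage and monocyte markers went the opposite way, lower in S/G2/M in 18 of 18 tested, with a median of -0.70. Granulocyte markers were higher in S/G2/M in 4 of 4 tested. The part of either cell type in the values of these chains was not tested. Of the 36, 15 were higher in S/G2/M, against 47.1% of all genes, and the median log2 fold change was -0.15, against -0.04 over all genes.

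At E11.5 none of the 34 genes tested was called, where 0.701% of all genes were, 0.137% risen and 0.564% fallen. An unadjusted p under 0.05 was reached by 6 of the 34, against 8.27% of all genes. Lower in S/G2/M were Itgav, at 8.04 FPKM in S/G2/M and 17.3 in G1 (p = 0.00375, q = 0.221 in the authors' deposited table), Cdh11, at 7.45 and 14.7, Itgam, at 20.8 and 38.2, and Itgb2, at 12.01 and 23.1. Higher in S/G2/M were Itgb3, at 33.5 FPKM in S/G2/M and 17.2 in G1 (p = 0.0122, q = 0.353 in the authors' deposited table), and Cd47, at 80.1 and 47.7. Among genes of at least 5 FPKM, the lower value of Selplg, at 8.33 FPKM in S/G2/M and 16.6 in G1, was second in size to that of Itgav, and the higher value of Icam1, at 20.9 and 12.02, was second to that of Itgb3. Neither was called. Of 19 macrophage and monocyte markers tested, 8 fell in S/G2/M relative to G1 at E11.5, with summed levels of 1776 against 4666 FPKM in these tables, and at E10.5 none of 18 was called in the authors' Cuffdiff test while 6 had an unadjusted p under 0.05, with sums of 493 against 770.2 FPKM. Of 11 erythroid markers, 10 were lower in S/G2/M at E11.5, with sums of 3053 against 11798 FPKM, and Hba-x and Hbb-bh1 fell. The part of these cells in the lower values of Itgam, Itgb2 and Selplg was not tested.

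In this comparison 7 of the 34 genes were higher in S/G2/M, against 46.0% of all genes, and the median log2 fold change was -0.38, against -0.06 over all genes. Dividing each group by the median of all genes moved log2 fold changes by 0.10 here, which left the median of the adhesion genes at -0.28 and turned the sign of Vcam1, Icam2 and Cd9, each within 0.10 of 0. Since the comparisons of phases and ages use the same groups, their values are given side by side and not as separate evidence.

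**Figure D4:**
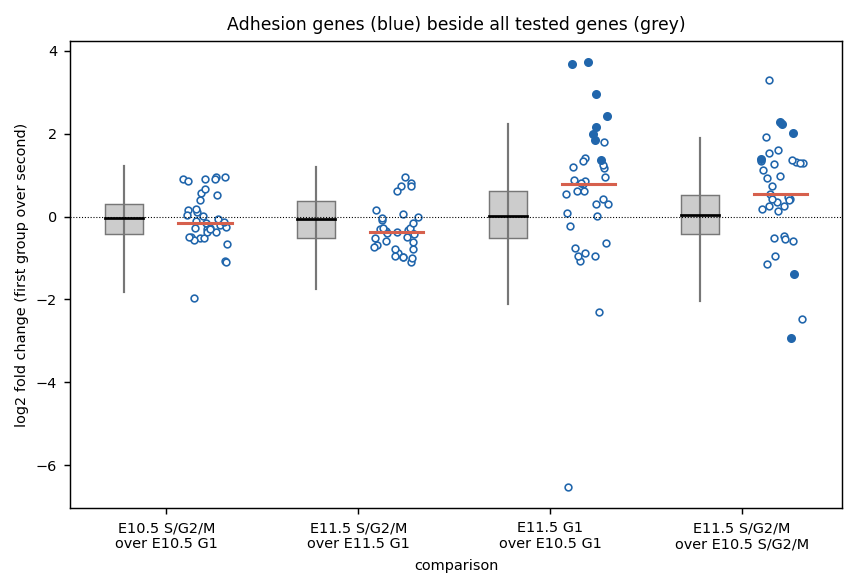
Log2 fold change (vertical axis, group named first over group named second) of the adhesion genes (blue points, filled where the authors' q-value was under 0.05, red line at their median) beside all tested genes (grey box for the middle 50%, black line at the median, grey line from the 5th to the 95th percentile) in the 4 comparisons. The red line lies at 0.79 and 0.54 in the comparisons of ages and at -0.15 and -0.38 in those of phases, where no point is filled.

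Genes that act with these receptors were counted from 4 further lists. Of all genes, 4.07% were called with age in S/G2/M and 4.45% in G1. Of 35 genes of the integrin activation and adhesion complex, Tln1, Apbb1ip, Fyb and Lyn rose with age in both phases, and Parvg and Syk in S/G2/M, with none fallen of 33 tested in S/G2/M and 31 in G1. Tln1 (talin-1), which binds beta chains and switches integrins to their active form, stood at 48.6 FPKM in E11.5 S/G2/M and 51.2 in E11.5 G1, against 21.3 and 17.95 at E10.5. Apbb1ip (RIAM), which brings talin to the membrane, stood at 61.3 and 67.8 FPKM at E11.5, against 15.5 and 13.3 at E10.5, in S/G2/M and G1 in each case. Fyb (ADAP), an adaptor of inside-out signalling in blood cells, stood at 17.9 FPKM in E11.5 S/G2/M and 45.6 in E11.5 G1, against 3.26 and 4.79 at E10.5. Lyn, a Src family kinase of blood cells, stood at 42.1 and 66.0 FPKM at E11.5, against 15.9 and 20.6 at E10.5. Over the list, the median log2 fold change came to 0.54 in S/G2/M and 0.52 in G1, and the called share to 18.2% and 12.9%.

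Of 28 extracellular ligands of integrins, Lama4 (laminin alpha-4, of the endothelial basement membrane) and Tgfb1, whose latent form alpha-v integrins bind, rose with age in both phases and Lamc1 in G1. Lama4 stood at 26.7 FPKM in E11.5 S/G2/M and 35.5 in E11.5 G1, against 9.90 and 8.80 at E10.5, and Tgfb1 at 120.1 and 113, against 39.1 and 32.4. Lama1, Tnc and Postn fell in S/G2/M, where 20 were tested. The called share of the ligands was 25% in S/G2/M and 13.6% in G1, against 4.07% and 4.45% of all genes. Tnc (tenascin-C) stood at 0.894 FPKM in E11.5 S/G2/M, against 6.24 in E10.5 S/G2/M, and Postn (periostin) belongs to the mesenchymal marker list as well. Of 24 other adhesion receptors tested in each phase, Pecam1 and Sirpa, the receptor of Cd47, rose in both phases. Cd34 rose and Cadm1 and Cdh3 fell in S/G2/M. The called share of these receptors was 20.8% in S/G2/M and 8.33% in G1. Of the 24 receptors, 15 were higher and 9 lower at E11.5 in S/G2/M, with a median log2 fold change of 0.48. In G1, 11 were higher and 13 lower, with a median of -0.30, against 0.02 over all genes. An unadjusted p under 0.05 in the authors' Cuffdiff test was reached by 10 of them in S/G2/M and 11 in G1, against 13.9% and 15.4% of all genes. Sirpa, known from myeloid cells, stood at 45.1 FPKM in E11.5 S/G2/M and 99.0 in E11.5 G1, against 14.9 and 13.3 at E10.5. Of the tetraspanins, Cd53, a leukocyte member, rose in both phases, of 16 tested in S/G2/M and 15 in G1. It was the only one called, a share of 6.25% and 6.67%, near the 4.07% and 4.45% of all genes. Between phases no gene of these 4 lists was called at either age in the authors' Cuffdiff test. Of all genes, 0.655% were called at E10.5 and 0.701% at E11.5. An unadjusted p under 0.05 was reached at E10.5 by 1 of 32 genes of the activation complex, 2 of 22 ligands, 2 of 23 other receptors and 1 of 16 tetraspanins. Of all genes, 6.69% reached it. At E11.5 the counts were 2 of 32, 0 of 19, 5 of 23 and 1 of 16 in that order, against 8.27% of all genes.

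**Figure D5:**
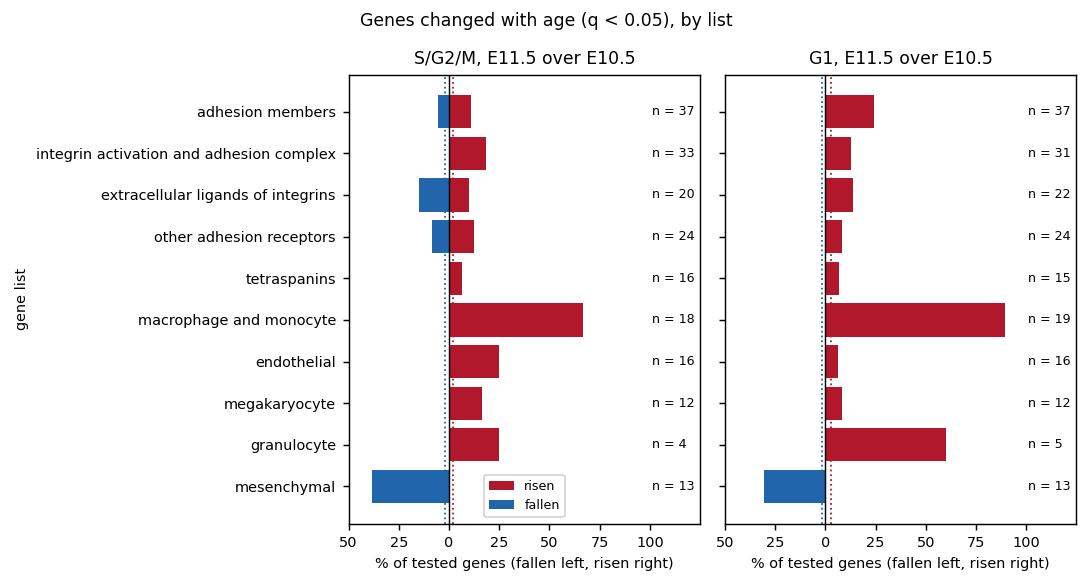
Percentage of tested genes (horizontal axis) that rose (red, right of 0) or fell (blue, left of 0) with age at q under 0.05 in each gene list drawn (rows), in S/G2/M on the left and G1 on the right, with the number tested at the right edge and dotted lines at the shares of all genes. Not drawn are the erythroid list, with 2 of 11 fallen in S/G2/M, and the epithelial and neural list, with 3 of 13 fallen in G1. The adhesion members reach 24.3% called in G1, and 17 of 19 tested macrophage and monocyte markers rose there.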

How the data were processed

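RNA of 12 sorted samples in 4 groups of 3 was analysed. Reads were processed with CASAVA 1.4, TopHat and Cuffdiff on mm10, per the submitters' processing notes, while the labels' protocols name bowtie 0.12.2 and mm8. The deposited loci of 42 of 42 members overlap the GENCODE gene of the same symbol on GRCm38, so coordinates are given as mm10, counted from 1 after adding 1 to deposited starts. The sources used here do not give strandedness, so reads of overlapping antisense genes cannot be told apart.

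The authors deposited 6 tables of 24138 genes in Cuffdiff's layout. Per the file headers, each holds 1 FPKM value for each of 2 groups. The p-values and q-values are the authors' own and come from the same deposited tables, which tested 12414 to 12984 genes each. Genes the authors did not test have too few reads by their criterion, and read totals are not given, so depth and precision are unknown. The tables name 1 group with G2, read here as S/G2/M. The design foresaw tests on values of single samples, and the tables held group values, so the authors' q-value under 0.05 was used.

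Fold changes were computed from FPKM without a pseudocount, and none is given against 0. The script for Benjamini-Hochberg adjustment was tested on simulated data. Applied to the deposited p-values over the genes tested in each table, it gave the deposited q-values to within 5.27e-07. Named were every called member, the 10 most abundant, and per comparison the 3 largest differences each way among members whose higher group reached 5 FPKM. Pathway and marker genes were named where called, or to describe a list. The members, lists and rules were chosen with earlier results of these data known. 1 marker gene is withheld and not reported here. Of the listed symbols, Nectin2, Cd99 and Ahsp were not matched. Alternatives were other thresholds, filters, a pseudocount, median scaling and tables in the other order. Calculations ran in Python 3.11.15 with pandas 2.3.3 and numpy 2.4.6, and plots in matplotlib 3.10.9.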

Additional observations from a re-analysis of the deposited data

How the results depend on the processing

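Between ages in G1, the 9 adhesion genes called became 7 to 11 over the alternative thresholds, fold minimum, FPKM minimums and the adjustment over genes of at least 1 FPKM. Between ages in S/G2/M, the 6 called became 5 to 8, except at a threshold of 0.01, which left 2. At 0.01, Itga2 and Itgav were no longer called in G1, nor Itgal, Itgb8, Cdh11 and Cd44 in S/G2/M. Between phases the alternatives that could have added a call (a threshold of 0.085, the new adjustment and the deposited tables in the other order, from the same Cuffdiff test) called none, and stricter ones could not. Alternatives for repeated or joined gene rows could change nothing, since no member has such a row. The medians moved by less than 0.1 in 13 of 14 alternatives. The exception was median scaling between E11.5 phases, at -0.28. No paired analysis was possible because the deposited columns carry no single samples, and leaving out each replicate was not run for the same reason. Depth is unknown, so what was not called may have been undetectable.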
